A study of Homo sapiens with 9 samples.

Results

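The genes examined here encode the AP-1 and early growth response (EGR) transcription factors: FOS, FOSB, FOSL1 and FOSL2 of the FOS family, JUN, JUNB and JUND of the JUN family, and the zinc finger factors EGR1, EGR2 and EGR3. They were chosen by name, as every non-control probe of the array annotated to 1 of these 10 genes, and each gene had 1 probe on 1 spot, so 10 of the 50599 probes were followed. All 10 probes were well above background on all 9 arrays and all 10 passed the filter of the tests.

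FOS proteins pair with JUN proteins through a leucine zipper, whereas JUN proteins can also pair with each other, and both kinds of pair bind AP-1 sites in DNA. FOS, FOSB, JUNB and the EGR genes are immediate early genes, whose transcription rises within minutes of growth factor or stress signals through MAP kinases and the serum response factor, and which do not need new protein synthesis to be induced. FOSL1 is a longer-lived AP-1 subunit that accumulates in cells with active RAS and MAP kinase signalling, and it is often abundant in colorectal cancer cells.

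The cells were RKO, an established colorectal cancer cell line. They received a control siRNA (siCONT) or an siRNA against UHRF1 (siUHRF1), a protein that recruits the maintenance DNA methyltransferase, for 72 h, and then ethanol (mock) or 300 nM trichostatin A (TSA), an inhibitor of histone deacetylases, for a further 24 h. The groups were thus siCONT and siCONT + TSA, and siUHRF1 and siUHRF1 + TSA, with 2 arrays each. Replicate 1 of both siUHRF1 groups carried siUHRF1-1 and replicate 2 carried siUHRF1-2, so those replicates differed in siRNA. A single further array held cells given 1 µM 5-aza-2'-deoxycytidine (5-aza-dC), an inhibitor of DNA methyltransferases, for 72 h without siRNA. No label says that the 2 arrays of a group came from separate cultures, so the p-values measure only the spread between these arrays.

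Levels are given as multiples of the 75th percentile of the non-control signals of the same array, which ranged from 245.3 to 337.9 over the 8 arrays with an siRNA and reached 821.6 with 5-aza-dC. The share of probes well above background was 43.64% to 46.58% for the siRNA arrays and 51.61% with 5-aza-dC, an array with its own slide and scan. The 8 siRNA arrays shared 1 slide, with the mock arrays in row 1 and the TSA arrays in row 2. Arrays with the control siRNA sat in columns 1 and 2, and those with an siRNA against UHRF1 in columns 3 and 4. Effects of TSA and of UHRF1 depletion thus cannot be told apart from position on the slide. UHRF1 itself was at 6.44 and 6.45 in siCONT, 1.28 and 1.05 in siUHRF1, 7.31 and 7.28 in siCONT + TSA, 0.791 and 0.650 in siUHRF1 + TSA, and 12.9 with 5-aza-dC. Of 8 epithelial and intestinal markers, KRT8, KRT18 and CDX2 were above background on all 9 arrays, whereas CDH1, VIL1 and CDH17 were on none. The summed level of 8 markers of blood, endothelial and stromal cells was 0.347 to 0.351 in siCONT, 0.391 to 0.558 in siUHRF1, 0.665 to 0.692 in siCONT + TSA, 1.35 to 1.52 in siUHRF1 + TSA and 1.29 with 5-aza-dC, and its part in the results below was not tested. COL1A1 was the 1 marker of these 8 above background on all 9 arrays, and PECAM1 the 1 above background on none.

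RefSeq (GRCh38.p14) gave the sequence from 250 bases before to 50 bases after the transcription start for 8 of the 10 genes, with 3 starts for EGR2 and 10 promoters in all. The 250 bases before the start are printed here for the pair whose levels moved together most closely over the arrays, EGR1 and JUN, and for FOS and EGR2, which on the average of mock and TSA differed most between the siRNAs against UHRF1. Capitals mark a CArG box, the binding site of the serum response factor, in EGR1 and EGR2, the AP-1 element TGACATCA in JUN and the cyclic AMP response element TGACGTTT in FOS.

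EGR1, chr5:138465229-138465478, plus strand: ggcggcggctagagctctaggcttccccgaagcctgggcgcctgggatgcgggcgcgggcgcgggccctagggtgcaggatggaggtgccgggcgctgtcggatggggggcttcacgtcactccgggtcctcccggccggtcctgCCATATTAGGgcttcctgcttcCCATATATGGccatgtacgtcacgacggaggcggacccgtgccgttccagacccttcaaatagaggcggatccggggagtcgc

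EGR2, start 3, chr10:62816367-62816616, minus strand: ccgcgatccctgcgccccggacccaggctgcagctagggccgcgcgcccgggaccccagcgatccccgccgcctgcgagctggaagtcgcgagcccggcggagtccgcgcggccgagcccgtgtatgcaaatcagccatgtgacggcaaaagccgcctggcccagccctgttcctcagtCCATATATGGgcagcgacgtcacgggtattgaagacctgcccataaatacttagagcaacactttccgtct

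JUN, chr1:58784048-58784297, minus strand: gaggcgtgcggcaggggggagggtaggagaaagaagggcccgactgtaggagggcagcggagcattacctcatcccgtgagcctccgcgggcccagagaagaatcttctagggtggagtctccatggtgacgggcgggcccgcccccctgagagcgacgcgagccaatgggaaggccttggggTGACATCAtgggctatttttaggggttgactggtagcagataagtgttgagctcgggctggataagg

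FOS, chr14:75278578-75278827, plus strand: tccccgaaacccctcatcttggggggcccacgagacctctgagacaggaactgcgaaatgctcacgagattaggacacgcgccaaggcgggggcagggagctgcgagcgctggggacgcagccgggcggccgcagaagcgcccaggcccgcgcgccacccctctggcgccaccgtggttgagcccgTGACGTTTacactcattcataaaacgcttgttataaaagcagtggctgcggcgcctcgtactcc

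The CArG box begins at positions -105 and -83 from the start of EGR1 and at -71 from start 3 of EGR2. It was found in 1.29% of all 35114 promoters of the same length when both strands were searched. None of the other promoters of these genes, FOS among them, held it in the stretch searched. That stretch ran from 250 bases before to 50 bases after the start, so a CArG box further upstream would have been missed. FOSL1 and EGR3 had no promoter to search. The JUN element begins at -67 and the FOS element at -64. These letters were added to the search after the sequences had been seen, and TGACATCA was present in 2.61% and TGACGTTT in 0.487% of all promoters. Of the other motifs, the AP-1 consensus TGACTCA (4.95% of all promoters) was found in FOSL2, beginning at position 5 after its start, and TGACGTCA (1.85%) in JUND at -200. The EGR consensus GCGTGGGCG (0.795%) was in none of the 10 promoters. GGGCGG, which can overlap GCGTGGGCG and is not in capitals, was in 45% of all promoters and in FOS, FOSB, FOSL2, JUN, JUND and starts 1 and 2 of EGR2. The promoters of these genes held 9 to 49 CpG dinucleotides, from start 1 of EGR2 to JUND, against a median of 14 and quartiles of 4 and 28 over all promoters. A match describes the sequence and does not show that a factor binds there.

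**Figure D1:**
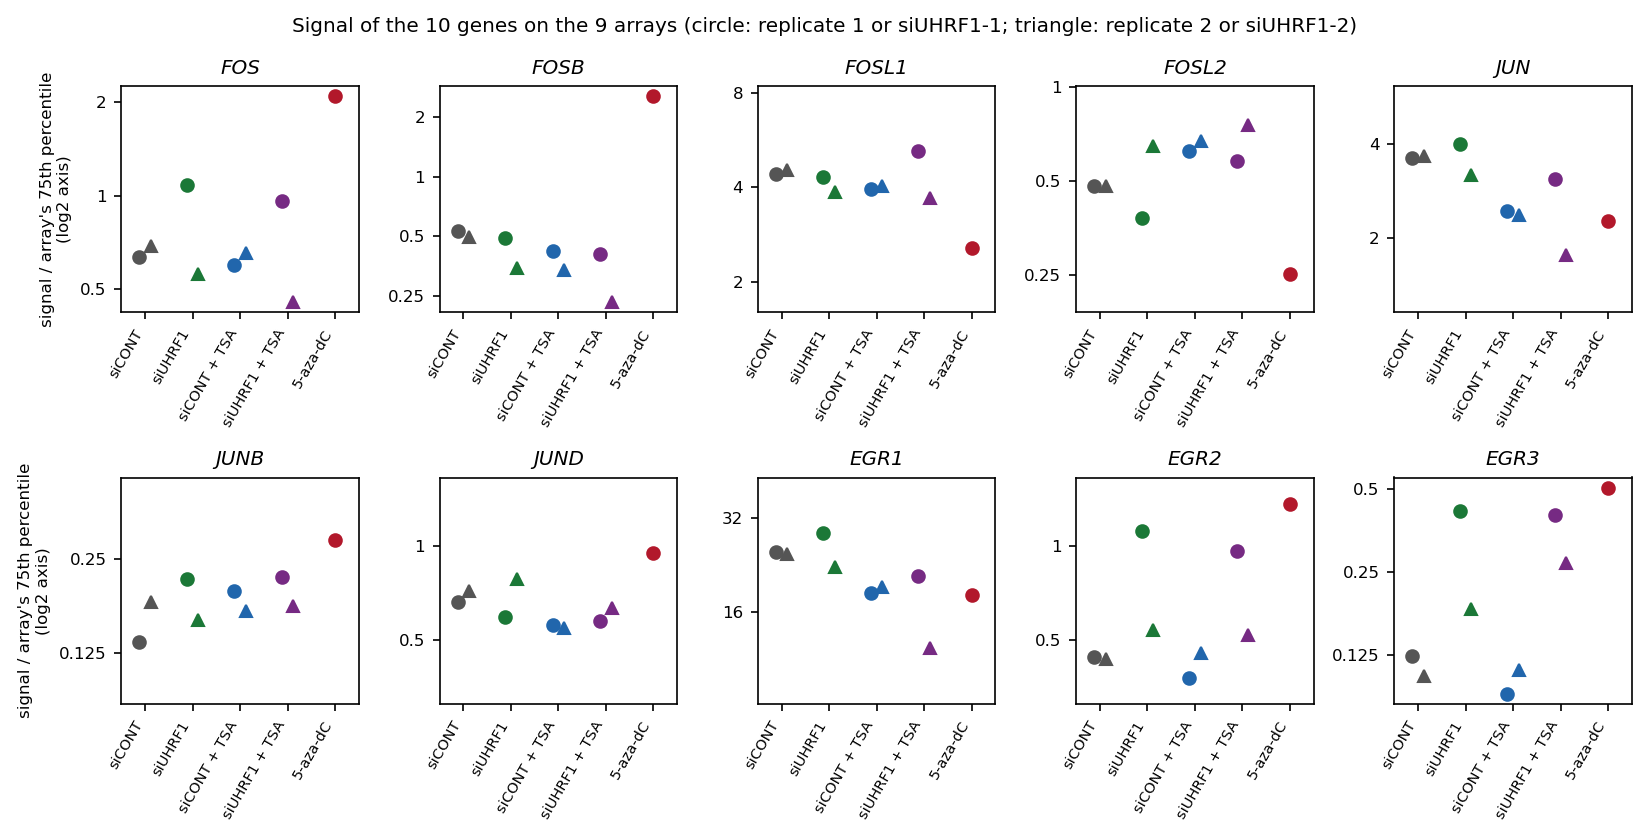
Signal of each of the 10 genes on the 9 arrays, as a multiple of the array's 75th percentile on a log2 axis with its own range in each panel. Circles are replicate 1 (siUHRF1-1 in the siUHRF1 groups), triangles are replicate 2 (siUHRF1-2), and 5-aza-dC has 1 array. EGR2 and EGR3 lay higher on all siUHRF1 arrays than on all siCONT arrays, and the siUHRF1-1 circles of FOS, EGR2 and EGR3 lay above the siUHRF1-2 triangles.

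EGR3 was higher on the arrays with UHRF1 depletion, both with and without TSA. Its call for siUHRF1 + TSA against siCONT depended on the processing and on the arrays kept. EGR3 and EGR2 encode zinc finger factors that bind the same GC-rich sites as EGR1 and are induced through serum response factor sites. EGR3 was at 0.123 and 0.104 in siCONT, 0.0904 and 0.110 in siCONT + TSA, 0.417 (siUHRF1-1) and 0.184 (siUHRF1-2) in siUHRF1, 0.402 and 0.270 in siUHRF1 + TSA, and 0.505 with 5-aza-dC. All 4 arrays with an siRNA against UHRF1 were higher than all 4 arrays with the control siRNA, and the siCONT + TSA arrays overlapped the siCONT arrays. In limma, siUHRF1 + TSA against siCONT gave a log2 fold change of 1.54 (SE 0.396, 95% interval 0.58 to 2.50, adjusted p = 0.0377), or 2.90-fold. EGR3 was 1 of 10 genes, and the only one, called in this comparison at an adjusted p below 0.05, where 23.2% of all 23730 probes tested were called. The call was lost when siCONT replicate 1 (1.66, adjusted p = 0.124), siCONT replicate 2 (1.42, adjusted p = 0.169), siUHRF1-1 + TSA (1.25, adjusted p = 0.145), siUHRF1-2 + TSA (1.82, adjusted p = 0.0673) or either siCONT + TSA array (adjusted p = 0.0657) was left out, and with normexp background correction, where the log2 fold change was 0.60 (adjusted p = 0.238).

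UHRF1 depletion alone called none of the 10 genes in limma, against 0.556% of all probes. At an unadjusted p below 0.05 it called 1 of them, EGR3, against 8.9% of all probes. The log2 fold change of EGR3 was 1.29 (SE 0.396, adjusted p = 0.379) and that of EGR2 0.82 (SE 0.406, adjusted p = 0.648). The other 8 genes lay between -0.31 (FOSB) and 0.24 (JUNB) in this comparison. Under TSA, siUHRF1 + TSA against siCONT + TSA gave 1.72 for EGR3 (SE 0.396, adjusted p = 0.0844) and 0.77 for EGR2 (adjusted p = 0.396). None of the 10 genes was called there, where 3.54% of all probes were. EGR3 alone was at an unadjusted p below 0.05, as were 17.4% of all probes. With normexp background correction the values of EGR3 became 0.50 under mock and 0.23 under TSA. A fit with a term for the difference between the siRNAs against UHRF1, which is described with that difference, called EGR2 under mock (adjusted p = 0.0498), where 1.41% of all probes were called. Under TSA it called EGR3 (adjusted p = 0.0128) and EGR2 (adjusted p = 0.0201), where 11.3% of all probes were called. That term takes the difference between the siRNAs out of the error, and the SE under TSA became 0.192 for EGR3 and 0.1065 for EGR2. The p-values of that fit thus do not measure how the effect of UHRF1 depletion varies between siRNAs. In the fit without that term, leaving out either siUHRF1 mock array kept the value of EGR3 under TSA at 1.72. Only the pooled error changed, as those arrays are not part of this comparison, so a call there adds no support. The effect of UHRF1 depletion did not differ detectably between TSA and mock for any of the 10 genes in limma. Of them 0 were called, against 0.379% of all probes, and 0 had an unadjusted p below 0.05, against 4.91%. For EGR3 the difference was 0.43 with a 95% interval from -0.92 to 1.79, and became -0.27 with normexp.

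EGR2 was at 0.441 and 0.434 in siCONT, 0.379 and 0.454 in siCONT + TSA, 1.12 (siUHRF1-1) and 0.538 (siUHRF1-2) in siUHRF1, 0.964 and 0.520 in siUHRF1 + TSA, and 1.37 with 5-aza-dC. The arrays with UHRF1 depletion all exceeded those without, but the siUHRF1-2 arrays exceeded the highest control array by far less than the siUHRF1-1 arrays did. Across the 9 arrays EGR2 and EGR3 had Pearson's r = 0.94 on the log2 scale, as a description over arrays that share groups and siRNAs.

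**Figure D2:**
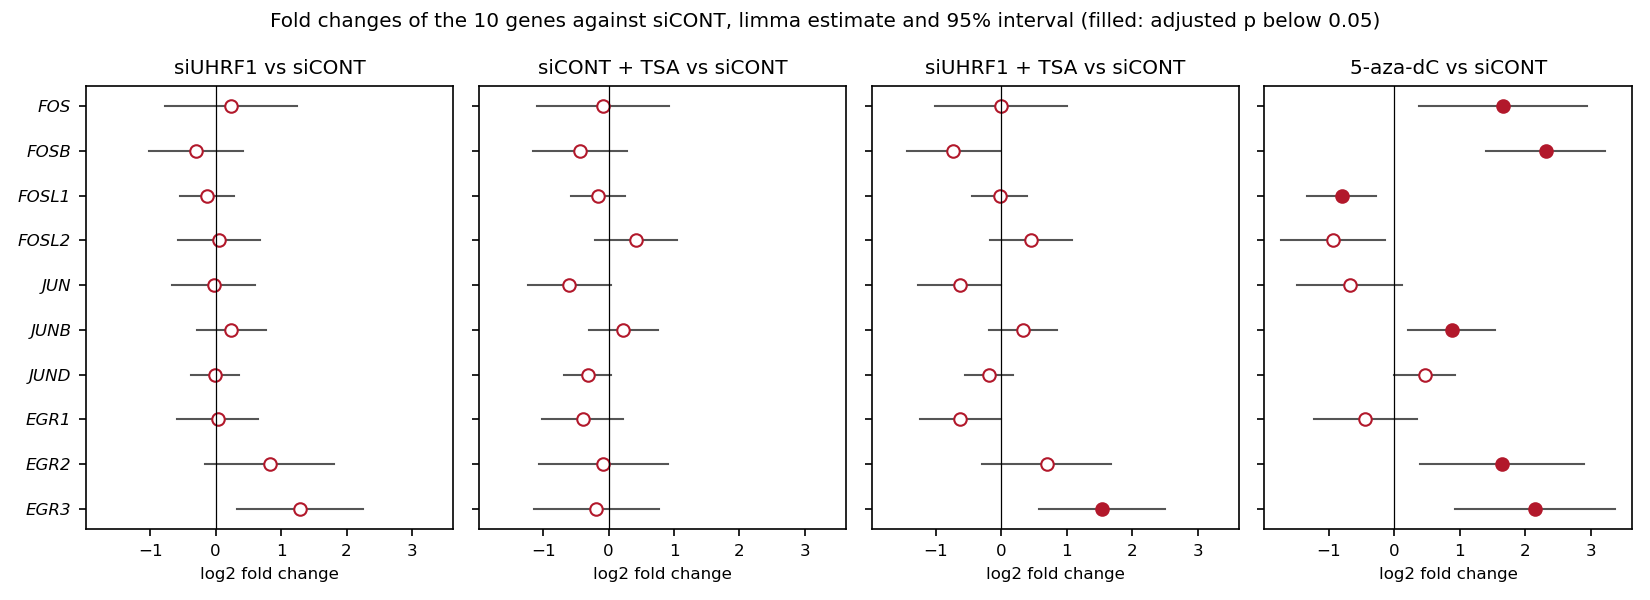
Log2 fold changes of the 10 genes against siCONT for siUHRF1, siCONT + TSA, siUHRF1 + TSA and 5-aza-dC, as the limma estimate (point) with its 95% interval (line). Filled points had an adjusted p below 0.05, which held for EGR3 in siUHRF1 + TSA and for 6 genes in 5-aza-dC.

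The siRNAs against UHRF1 gave different levels for most of these genes. FOS, the founding AP-1 partner of JUN, was at 1.08 with siUHRF1-1 and 0.561 with siUHRF1-2 under mock, and at 0.960 and 0.455 under TSA, whereas siCONT arrays read 0.635 and 0.689 and siCONT + TSA arrays 0.597 and 0.652. Both siUHRF1-1 arrays lay above all 4 control siRNA arrays, and both siUHRF1-2 arrays lay below them. As a result siUHRF1 against siCONT gave 0.23 (SE 0.417) and siUHRF1 + TSA against siCONT gave -0.0015 (SE 0.417) on the log2 scale, with arrays on both sides of the controls.

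Because of this, the siRNAs were compared in limma with a term for siUHRF1-1 against siUHRF1-2 that was shared by mock and TSA, a comparison chosen after the data had been seen. It called 7 of the 10 genes, where 14.3% of all probes were called. FOS was higher with siUHRF1-1 by 1.01 on the log2 scale (SE 0.0838, adjusted p = 0.0164), EGR2 by 0.97 (SE 0.106, adjusted p = 0.0192), EGR3 by 0.88 (SE 0.192, adjusted p = 0.0477) and FOSB by 0.65 (SE 0.137, adjusted p = 0.0447). JUN (0.57, SE 0.120, adjusted p = 0.0448) and EGR1 (0.56, SE 0.110, adjusted p = 0.0395) were also called higher, and FOSL2 was called lower (-0.58, SE 0.107, adjusted p = 0.0364). FOSL1 (0.33), JUNB (0.37) and JUND (-0.27) were not called. FOSL1 was called with spike-in scaling (0.62, adjusted p = 0.0175) and with a trended and robust prior (adjusted p = 0.0178). In turn FOSL2 was not called with spike-in scaling (-0.28, adjusted p = 0.0738), nor EGR3 with quantile normalization (0.91, adjusted p = 0.0501). In 8 of the 10 genes siUHRF1-1 lay above siUHRF1-2 both in mock and under TSA, in the other 2 (FOSL2 and JUND) below in both. The largest difference between replicate arrays of the control siRNA was 0.419, in JUNB.

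The median of these 10 genes in that comparison was 0.57, and that of all probes tested -0.08. Each siRNA was read on 1 mock and 1 TSA array that sat in the same column of the slide, so siRNA, culture and column cannot be told apart. With either siUHRF1 mock array left out, the difference rests on 1 TSA array of each siRNA, and both fits give the same value. It was then 1.08 for FOS, 0.80 for JUN and 0.77 for EGR1. EGR2 gave 0.89, EGR3 0.58, FOSB 0.80 and FOSL2 -0.39. Without either siUHRF1 + TSA array, the mock arrays gave 0.94, 0.34, 0.36, 1.05, 1.18, 0.50 and -0.77 in the same order. Neither set is replicated, so these fits do not test the calls. With normexp background correction the signs stayed and none of the 10 genes was called. Scaling on spike-in probes raised the median of all probes to 0.21 and turned JUND to 0.02.

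**Figure D3:**
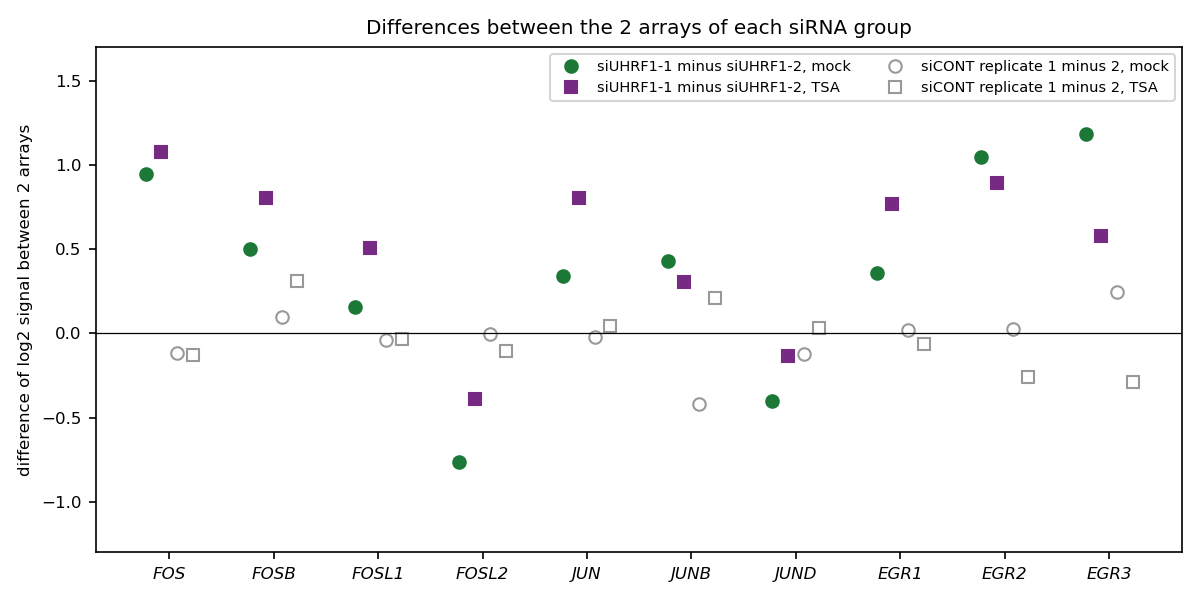
Differences of log2 signal between the 2 arrays of each siRNA group for the 10 genes: siUHRF1-1 minus siUHRF1-2 under mock (filled circles) and TSA (filled squares), and replicate 1 minus 2 of the control siRNA (open symbols). On the average of mock and TSA, FOS, EGR2 and EGR3 differed most between the siRNAs against UHRF1, with 0.94 and 1.08 for FOS, and FOSL2 ran the other way with -0.77 and -0.39.

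The immediate early genes outside this family were read in the same comparison, and the genes of the next sentences were named after their values had been seen. Of 18 tested, 5 were called higher with siUHRF1-1 (GEM 0.70, SGK1 0.63, CTGF 0.56, ZFP36 0.55 and NR4A3 0.39) and 1 lower (IER3, -0.44), against 5.72% higher and 9.08% lower among all 17759 genes tested. Among 21 serum response and MAP kinase input genes, 3 were called higher, among them the kinase MAP2K1 (0.52) and the SRF partner ELK3 (0.55), and MAP2K2 was lower (-0.36). PLAUR, the urokinase receptor gene on the AP-1 target list, was higher by 0.56.

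TSA in cells with the control siRNA called none of the 10 genes in the fit of all 8 arrays, where 10.4% of all probes were called. None had an unadjusted p below 0.05, where 28.9% of all probes had. The replicates of both groups lay close together for several genes. JUN, the main JUN family member of AP-1, was at 3.63 and 3.67 in siCONT and at 2.44 and 2.37 in siCONT + TSA, a log2 fold change of -0.60 (SE 0.261, adjusted p = 0.191). EGR1, which binds GC-rich promoters, was at 24.9 and 24.5 in siCONT and at 18.4 and 19.2 in siCONT + TSA (-0.39, SE 0.255, adjusted p = 0.356). FOSL2, a FOS relative without a strong activation domain, was at 0.484 and 0.485 in siCONT and at 0.626 and 0.672 in siCONT + TSA (0.42, SE 0.258, adjusted p = 0.332).

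The standard errors of that fit pool the spread of all 4 groups, and thus include the difference between the siRNAs against UHRF1. With the siRNA term in the model, an alternative added after the data had been seen, JUN (-0.60, SE 0.120, adjusted p = 0.0252) was called lower and FOSL2 (0.42, SE 0.107, adjusted p = 0.0448) higher with TSA, and 28.5% of all probes were called. On the 4 arrays of siCONT and siCONT + TSA alone, JUN (adjusted p = 0.00802), EGR1 (adjusted p = 0.0135) and JUND (-0.32, adjusted p = 0.0312) were called lower and FOSL2 (adjusted p = 0.0161) higher, where 39.1% of all probes were called. The shares of the 10 genes called were thus below or near those of all probes. JUND, a JUN protein expressed steadily rather than in bursts, was at 0.660 and 0.717 in siCONT and at 0.557 and 0.546 in siCONT + TSA.

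In siUHRF1 + TSA, JUN was at 3.097 (siUHRF1-1) and 1.77 (siUHRF1-2), against 4.02 and 3.18 in siUHRF1 without TSA. EGR1 was at 20.8 and 12.2, against 28.6 and 22.3 without TSA. Both genes were lower with TSA for each siRNA, and both siUHRF1 + TSA arrays were below both siCONT arrays. The log2 fold change of siUHRF1 + TSA against siCONT was -0.64 for JUN (SE 0.261, adjusted p = 0.129) and -0.63 for EGR1 (SE 0.255, adjusted p = 0.127), and neither was called. Without the siUHRF1-1 + TSA array, which leaves 1 array in that group, the values were -1.04 for JUN, -1.01 for EGR1 and -1.13 for FOSB. Without the siUHRF1-2 + TSA array instead, they were -0.24 for JUN, -0.24 for EGR1 and -0.33 for FOSB. The size of these falls thus depended on which siRNA array was kept. With the siRNA term, 6 of the 10 genes were called in the comparison of siUHRF1 + TSA with siCONT, against 41.5% of all probes. EGR3 (adjusted p = 0.00494), EGR2 (0.69, adjusted p = 0.00837) and FOSL2 (0.45, adjusted p = 0.0274) were higher. EGR1 (adjusted p = 0.012), FOSB (-0.73, adjusted p = 0.0143) and JUN (adjusted p = 0.0145) were lower. These p-values too leave out the spread between the siRNAs.

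TSA in UHRF1-depleted cells, siUHRF1 + TSA against siUHRF1, gave -0.61 for JUN (adjusted p = 0.165) and -0.66 for EGR1 (adjusted p = 0.133) in limma. None of the 10 genes was called, while 15.5% of all probes were. EGR1 alone was at an unadjusted p below 0.05, as were 32.7% of all probes. Leaving out siUHRF1-1 + TSA gave -1.01 for JUN and -1.04 for EGR1, and leaving out siUHRF1-2 + TSA gave -0.21 and -0.28. For FOSL2, leaving out the mock array of siUHRF1-2 gave 0.79 and leaving out that of siUHRF1-1 gave 0.03. Each of these fits leaves 1 array in a group. The siRNA term called JUN (adjusted p = 0.021) and EGR1 (adjusted p = 0.0141) lower and FOSL2 (adjusted p = 0.0428) higher, where 33.5% of all probes were called. JUN and EGR1 had r = 0.97 over the 9 arrays, again as a description.

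FOSB, which like FOS is induced in bursts, was at 0.530 and 0.495 in siCONT, 0.421 and 0.339 in siCONT + TSA, 0.493 and 0.348 in siUHRF1, and 0.407 and 0.234 in siUHRF1 + TSA. The siUHRF1 + TSA arrays were both below both siCONT arrays, with a log2 fold change of -0.73 (SE 0.296, adjusted p = 0.126). FOSL1 was at 4.42 and 4.54 in siCONT, 3.96 and 4.06 in siCONT + TSA, 4.32 and 3.87 in siUHRF1, and 5.24 and 3.69 in siUHRF1 + TSA. Its siUHRF1 + TSA arrays lay on both sides of the siCONT arrays, and it was not called in any comparison of these groups in the limma fit of all 8 arrays. JUNB, a JUN protein that can oppose JUN at some promoters, was at 0.136 and 0.182 in siCONT and between 0.160 and 0.220 on the other 6 siRNA arrays, and its groups overlapped.

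FOSL2 was at 0.383 (siUHRF1-1) and 0.651 (siUHRF1-2) in siUHRF1 and at 0.580 and 0.758 in siUHRF1 + TSA, so the siRNA arrays lay on both sides of siCONT without TSA and above it with TSA. JUND was at 0.594 and 0.784 in siUHRF1 and at 0.577 and 0.634 in siUHRF1 + TSA, and its siCONT arrays lay within the siUHRF1 range. In bulk RNA, fewer cells that express a gene and less RNA per cell cannot be told apart.

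The single 5-aza-dC array stood apart for most of these genes. FOSB was at 2.55 with 5-aza-dC, 4.80-fold above the highest siRNA array, and FOS at 2.09, 1.94-fold above it. JUNB was at 0.289, JUND at 0.948, EGR2 at 1.37 and EGR3 at 0.505, each above all 8 siRNA arrays by 1.21-fold to 1.32-fold. FOSL1 was at 2.57 and FOSL2 at 0.254, both below all 8 siRNA arrays, and JUN at 2.28 and EGR1 at 18.2 lay inside their range.

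Against siCONT, limma called 6 of the 10 genes, where 48.9% of all 27173 probes tested were called, so the share of calls was near that of all probes. Of these calls, 5 were higher: FOSB by 2.31 (SE 0.371, adjusted p = 0.00395), EGR3 by 2.15 (SE 0.498, adjusted p = 0.0149), FOS by 1.66 (SE 0.525, adjusted p = 0.0423), EGR2 by 1.64 (SE 0.510, adjusted p = 0.0403) and JUNB by 0.88 (SE 0.271, adjusted p = 0.0398). FOSL1 was called lower (-0.80, SE 0.215, adjusted p = 0.0249). The error comes from the siRNA groups, since the array has no replicate. By the paper's methods these cells had drug and medium renewed each day, and they had no siRNA transfection. Drug, medium changes, absence of transfection, slide and scan thus cannot be told apart. FOSB was called in all 8 fits that left out 1 siRNA array, whereas the calls of FOS (adjusted p = 0.0689 to 0.119) and EGR2 (0.0643 to 0.109) were lost without either siCONT or either siCONT + TSA array. The call of JUNB (0.0632 to 0.139) was lost without siCONT replicate 1 or either siCONT + TSA array, that of FOSL1 (0.0771 to 0.087) without either siCONT array and that of EGR3 (2.03, adjusted p = 0.0581) without siCONT replicate 2. FOSL2 (-0.93, adjusted p = 0.0568), JUND (0.46, adjusted p = 0.0876) and JUN (-0.68, adjusted p = 0.135) missed the threshold. Leaving out an siUHRF1 or siUHRF1 + TSA array kept their values and changed only the pooled error, so calls gained there add no support. EGR1 (-0.44, adjusted p = 0.295) was not called in any of the 8 fits. With normexp background correction, where 36.3% of all probes were called, EGR3 (0.74, adjusted p = 0.126), JUNB (0.26, adjusted p = 0.391) and FOSL1 (-0.60, adjusted p = 0.0781) were no longer called, and FOSL2 was called lower (-0.91, adjusted p = 0.0251). JUNB was also not called after quantile normalization (0.72, adjusted p = 0.0952), nor were FOS, JUNB and EGR2 without the filter on dim probes (adjusted p = 0.0552, 0.0508 and 0.0527).

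These directions are relative to the array's own 75th percentile. Scaling on spike-in probes moved the median of all probes from 0.01 to -1.73 and called 86.2% of all probes, of which 7.67% were higher. Of the 10 genes, 5 were then called, all lower: FOSL1, and FOSL2, JUN, JUND and EGR1, which had not been called before. FOS (-0.08), EGR2 (-0.10), JUNB (-0.87), FOSB (0.57) and EGR3 (0.41) were not called. This scaling shifts each array as a whole, so the distance of a gene from the median of all probes is the same under both by construction, at 2.3 for FOSB, 2.14 for EGR3, 1.65 for FOS, 1.63 for EGR2 and -0.81 for FOSL1.

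Other immediate early genes were also read on the 5-aza-dC array, named here after their values had been seen. EGR4, the remaining EGR family member, was not well above background on any of the 8 siRNA arrays and was at 0.597 with 5-aza-dC, at least 11.9-fold higher than siCONT. ARC, a neuronal immediate early gene, was at 0.159 and 0.182 in siCONT and at 3.78 with 5-aza-dC (4.48, SE 0.202). NR4A1, an orphan nuclear receptor, likewise had no siRNA array well above background and was at 0.146 with 5-aza-dC, at least 2.92-fold higher. Of 20 such genes tested, 8 were called higher and 3 lower (CYR61, BTG2 and PHLDA1), against 25.5% higher and 23.9% lower among all genes. EGR4 and NR4A1, among the 8, passed the filter only through the 5-aza-dC array, so their calls carry no independent weight.

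The genes that surround AP-1 and EGR signalling were read from 6 lists, chosen with earlier results of these data known. Each gene was represented by its probe of highest mean signal. Of 19 AP-1 target genes, 12 were tested, and 4 were called higher with TSA and 6 with siUHRF1 + TSA, with 0 lower in either, against 6.97% and 16.1% called higher among all genes. The list's median log2 fold change was 0.24 and 0.45, beside 0.08 and 0.07 for all genes. VIM, the mesenchymal filament vimentin, was at 0.764 and 0.743 in siCONT, 5.62 and 5.46 in siCONT + TSA, 5.47 and 4.47 in siUHRF1 + TSA and 50.6 with 5-aza-dC. Its log2 fold change was 2.88 with TSA (SE 0.124, adjusted p = 0.000933) and 2.71 with siUHRF1 + TSA (adjusted p = 0.000128). EZR, the membrane linker ezrin, rose by 0.82 with TSA (SE 0.0997, adjusted p = 0.0116), and the collagenase MMP1 was at least 1.53-fold higher with siUHRF1 + TSA. MMP1 passed the filter only through siUHRF1 + TSA, so its call, among the 6, carries no independent weight. Spike-in scaling lowered the counts of 4 and 6 to 1 and 3.

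**Figure D4:**
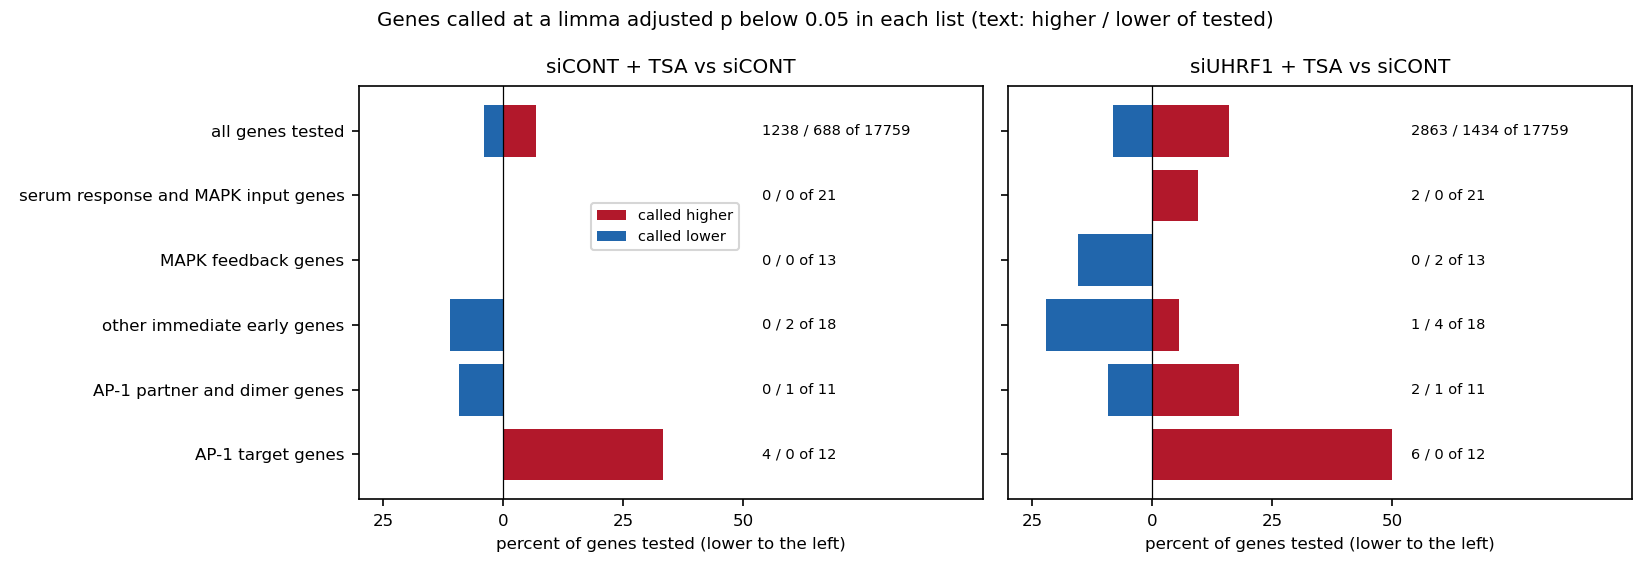
Share of the genes tested in 5 of the lists that were called higher (red, to the right) or lower (blue, to the left) at a limma adjusted p below 0.05 in siCONT + TSA and siUHRF1 + TSA against siCONT, beside all genes tested. The counts stand to the right of the bars, and the AP-1 target genes were called higher in 4 and 6 of 12.

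More of the other immediate early genes were called lower than higher, both with TSA and with siUHRF1 + TSA. With TSA 0 of 18 were called higher and 2 (11.1%) lower, against 6.97% and 3.87% of all genes. With siUHRF1 + TSA 1 (5.56%) was called higher and 4 (22.2%) lower, against 16.1% and 8.07%. PHLDA1 was at 3.56 and 3.45 in siCONT and at 1.98 and 1.96 in siCONT + TSA (-0.83, SE 0.104, adjusted p = 0.0118), and BTG2, an antiproliferative gene, at 8.69 and 8.63 against 4.88 and 5.30 (-0.77, SE 0.109, adjusted p = 0.0151). In siUHRF1 + TSA the secreted matrix protein gene CYR61 fell by 0.94 on the log2 scale (SE 0.138, adjusted p = 0.00651). ATF3, a stress-induced factor that pairs with JUN and stands on 2 of the lists, was at 14.0 and 12.7 in siCONT and at 5.91 and 3.58 in siUHRF1 + TSA (-1.54, SE 0.239, adjusted p = 0.00782), and 3 of its 4 probes were called. ARC, the 1 gene called higher, was at 1.06 and 0.801, 2.44 above siCONT on the log2 scale (SE 0.162, adjusted p = 0.000486).

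Of 11 AP-1 partner genes tested, 2 (18.2%) were called higher and 1 (9.09%, ATF3) lower in siUHRF1 + TSA, near the 16.1% and 8.07% of all genes. BATF2 and BATF, partners of JUN proteins best known in immune cells, were not well above background in siCONT and were at least 3.27-fold and at least 2.07-fold higher in siUHRF1 + TSA. Both passed the filter only through siUHRF1 + TSA, the group where they were high. Their calls, the 2 higher ones of this list, thus carry no independent weight. With TSA alone JDP2, a repressor that pairs with JUN, was called lower (-0.64, SE 0.126, adjusted p = 0.0313). Of 21 serum response and MAP kinase input genes, none was called with TSA, and with siUHRF1 + TSA 2 (9.52%) were called higher, among them the kinase MAP2K4 (0.61, SE 0.0977, adjusted p = 0.00839), and 0 lower. Spike-in scaling called none of these 21. Of 13 feedback genes, 2 (15.4%) were called lower in siUHRF1 + TSA and none with TSA. DUSP10, a MAP kinase phosphatase, was at 0.0930 and 0.0967 in siCONT and not well above background in siUHRF1 + TSA, at least 1.63-fold lower (adjusted p = 0.0248), and the inhibitor SPRY1 fell by 0.46 on the log2 scale (SE 0.120, adjusted p = 0.0398). NAB2, a co-repressor that binds EGR1, EGR2 and EGR3, was higher by 0.37 (SE 0.100, adjusted p = 0.0449), 1 of 2 genes tested in its list, and was not called with quantile, median or spike-in scaling.

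Finally, the 12429 genes above background on all 9 arrays were ranked by how closely their levels followed each of the 10 genes over the arrays. The most alike were FAM76A (Pearson's r = 0.97) and EGR1 (0.97) for JUN, FAM76A (0.97) and SYDE2 (0.97) for EGR1, CLPTM1L (0.99) and VPS4B (0.98) for FOS, and SUPV3L1 (0.99) and TMEM30A (0.99) for FOSB. Likewise ZNF146 (0.97) and PPP3CA (0.97) followed EGR3, C1orf229 (0.97) and FAM49B (0.97) EGR2, JAG2 (0.98) and STK10 (0.97) FOSL1, TMEM205 (0.99) and C12orf52 (0.99) FOSL2, DRD4 (0.98) and MEA1 (0.97) JUND, and TPD52L2 (0.95) and STARD3NL (0.94) JUNB. With 9 arrays that share groups and siRNAs, these values describe the arrays and carry no test.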

How the data were processed

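Total RNA of RKO cells was labelled in 1 colour and read on 9 arrays of the Agilent SurePrint G3 Human GE v2 design. The authors deposited spot intensity values (gProcessedSignal) from Agilent Feature Extraction 10.7.3.1, background-subtracted and detrended but not normalized between arrays. The deposited value table holds the same signal, and was used as an alternative. From these intensities, log2 values were taken relative to the 75th percentile of the array, outlier spots were left out, and probes were kept when well above background on every array of at least 1 group. Models were fitted with limma 3.58.1 (lmFit, eBayes) in R 4.3.3, over the 8 siRNA arrays or, for 5-aza-dC, over all 9, with Benjamini-Hochberg adjustment over all probes kept, and calls were made at an adjusted p below 0.05. The procedure was tested on simulated data. Where no array of a group was above background, a fold is a lower limit against the lowest signal called above background or, if higher, the probe's own signal. The members, lists and tests were chosen with earlier results of these data known. Genes named are the 10 members, UHRF1, the 2 most changed genes each way per list in the TSA and combination comparisons, and the 2 genes most alike each member. Others were named after their values were seen, and some list genes are not reported here. Alternatives covered background correction, scaling, filters, outlier spots, priors, blocks, the methods' t-test, arrays left out and an siRNA term. In the deviations from group means, replicates with the same number correlated at 0.47 between siUHRF1 and siUHRF1 + TSA, which share an siRNA, and between -0.05 and 0.08 in the other pairs of groups. The number of arrays limits the precision.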

Additional observations from a re-analysis of the deposited data

How the results depend on the processing

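The number of these 10 genes called was recomputed under each alternative. At an unadjusted p below 0.05 in limma, 37.8% of all probes passed for siUHRF1 + TSA against siCONT and 8.9% for siUHRF1 against siCONT. For siUHRF1 + TSA the share was 17.4% against siCONT + TSA and 32.7% against siUHRF1. Where no share is given, as for the t-test, the blocks and fits with 1 array left out, a count cannot be set against all probes. For siUHRF1 + TSA against siCONT the count of 1 became 0 with normexp background correction, quantile normalization, spike-in scaling, no filter on dim probes, or the methods' t-test after adjustment, 2 with the replicate block, 4 at an unadjusted p and 6 with the siRNA term, and ranged from 0 to 3 when 1 array was left out. For siCONT + TSA against siCONT the count of 0 became 4 on the arrays of the 2 groups alone, 2 and 5 by the methods' t-test with and without adjustment, and 2 with the siRNA term. For siUHRF1 against siCONT 0 became 1 at an unadjusted p and 1 with the siRNA term. For siUHRF1 + TSA against siCONT + TSA 0 became 1 with a trended and robust prior, at an unadjusted p, or by the methods' t-test without adjustment, and 2 with the siRNA term, and ranged from 0 to 1 with 1 array left out. For siUHRF1 + TSA against siUHRF1 0 became 1 with a block for the shared culture or siRNA and at an unadjusted p, 3 with the siRNA term, and ranged from 0 to 2 with 1 array left out. For 5-aza-dC against siCONT 6 became 3 with no filter and ranged from 2 to 8 with 1 array left out. For siUHRF1-1 against siUHRF1-2 7 became 0 with normexp and 0 with no filter. With 1 array left out that comparison rests on 1 array of each siRNA, so no count is given. The cause of these moves was not tested. The signs reversed for 5-aza-dC under spike-in scaling were those of FOS (-0.080), JUNB (-0.87), JUND (-1.28) and EGR2 (-0.10).

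With the replicate block FOSB was called lower in siUHRF1 + TSA (-0.73, adjusted p = 0.0425) beside EGR3. The numbers pair arrays only where an siRNA is shared, and the block changed the count in no other comparison, although for 5-aza-dC it lost JUNB (adjusted p = 0.0528) and called FOSL2. Of all probes called, the share that was higher moved under spike-in scaling from 62.1% to 34.3% with TSA, from 64.5% to 49.1% with siUHRF1 + TSA, from 49.4% to 7.67% with 5-aza-dC and from 40.5% to 93.8% between the siRNAs against UHRF1, and with quantile normalization to 52.9% with siUHRF1 + TSA. EGR3 lay between 0.0904 and 0.505 times the 75th percentile, and its log2 fold change in siUHRF1 + TSA was 1.54 and became 0.60 with normexp. The part of its signal over background in this was not tested.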
